A study of Mus musculus and Homo sapiens with 20 samples.

Results

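To ask which promoters carry monoubiquitylated histone H2A (H2AK119ub) in a leukaemia line and in normal blood progenitors, CUT&Tag peak lists of K562 cells treated with a control siRNA (siControl, n = 2 libraries, hg38) were set against those of wild-type (WT) mouse haematopoietic stem and progenitor cells (HSPCs, n = 2 libraries, mm10). Promoters were matched between species by gene symbol: 15136 of 19111 human and 20807 mouse autosomal protein-coding genes shared an upper-case symbol, 79.2% and 72.7% of each annotation, and the window 1 kb to each side of the annotated gene start was called marked when it touched a peak. K562 is an erythroleukaemia line grown from a patient with chronic myeloid leukaemia, and the siControl cells had been nucleofected with a non-targeting siRNA. The HSPCs were Lin- c-Kit+ cells from the marrow of C57BL/6 mice WT for Tet2, aged 6 to 8 weeks. They were a magnetically sorted mixture of stem cells and committed progenitors. The labels say that such cells were also kept in culture with cytokines that included SCF, IL-3 and GM-CSF. Whether the cells used for CUT&Tag were cultured or fresh is not clear. Species, cell type, transformation, siRNA treatment and list depth all separate the same 2 groups and cannot be told apart. The lists hold positions and no read counts, so sequencing depth is unknown. A shared symbol is not a checked orthologue, and members of large families such as keratins and ribosomal proteins are uncertain on both counts.

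H2AK119ub is placed by Polycomb repressive complex 1 (PRC1), whose RING1A or RING1B subunit carries the E3 ligase activity, and is removed by the BAP1 deubiquitinase complex. Variant PRC1 reaches unmethylated CpG islands through the CXXC domain of KDM2B, while canonical PRC1, with a CBX subunit, reads H3K27me3 placed by PRC2. In blood cells the mark is known for silencing HOX genes and regulators of other lineages, and a low diffuse level covers much of the genome.

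H2AK119ub peaks lay at far more matched promoters in HSPCs than in K562. Peaks touched 37.1% and 38.3% of the promoters in the 2 K562 libraries and 83.9% and 78.7% in the 2 HSPC libraries. The groups did not overlap, with means of 37.7% ± 0.850 and 81.3% ± 3.66 (SD, n = 2 each), a difference of -43.7 percentage points (K562 minus HSPC). The mean share of the window under peaks was 16.7% and 17.5% in K562 and 56.8% and 50.9% in HSPCs. An exact permutation test, two-sided, cannot return a p under 0.333 for groups of 2, and it returned 0.333 for each of 4 values tested (0.333 after Benjamini-Hochberg adjustment). No difference between the groups could therefore pass this test. The spread between libraries of a group, which may be technical, was the only error available.

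**Figure D1:**
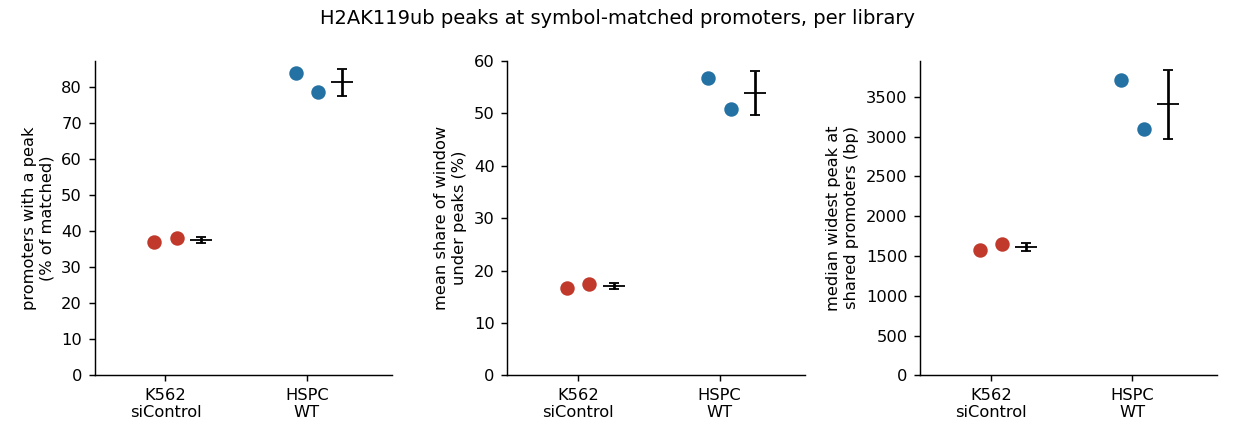
Share of the 15136 matched promoters with an H2AK119ub peak (left, percent), mean share of the 2-kb window under peaks (middle, percent) and median width of the widest promoter peak at shared promoters (right, bp), for each K562 siControl library (red) and WT HSPC library (blue). Bars beside the points give mean ± SD of 2 libraries, and in each plot both HSPC points lie above both K562 points.

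Set side by side, the lists placed 4021 promoters (26.6%) in a shared class with a peak in all 4 libraries and 1668 (11.0%) in a class with none. HSPC-only promoters, with a peak in both HSPC libraries and neither K562 library, numbered 5617 (37.1%). K562-only promoters, with a peak in both K562 libraries and neither HSPC library, numbered 212 (1.4%). The other 3618 had a peak in 1 of the 2 replicates of a group and were assigned to no class. Of the 4569 promoters marked in both K562 libraries, 88.0% were marked in both HSPC libraries, beside 76.2% of all matched promoters. Of the 11531 marked in both HSPC libraries, 34.9% were marked in both K562 libraries, beside 30.2% of all.

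The K562-only count was the least stable of the classes. It was 466 without HSPC replicate 1, the longer of the HSPC lists, and lay between 294 and 296 without any other single library. When each list was trimmed, keeping the widest peaks, to the covered share of the smallest list, K562-only promoters numbered 502 and HSPC-only promoters 3417. At the start of the principal transcript, in place of the outermost start of the gene record, 166 of the 212 K562-only and 5115 of the 5617 HSPC-only promoters stayed in their class. The principal start lay over 1 kb from the gene-record start at 18.1% of human and 8.90% of mouse genes.

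To show what these promoters look like, the 250 bases before the gene start are printed 5′ to 3′ for 1 gene of each class, with every CpG in capitals, because the classes differed in CpG content. Human sequence was read from hg38 and mouse sequence from the RefSeq promoter table, which held 11874 of the 15136 matched genes. OPN4 encodes the photopigment melanopsin. It had the widest K562-only peak among genes with a mouse entry and outside the chromosomes that the selection rule left out. Its promoter held 5 CpGs in human and 3 in mouse (hg38 chr10:86654268-86654517, plus strand, and GRCm38 chr14:34600143-34600392, minus strand).
OPN4 human: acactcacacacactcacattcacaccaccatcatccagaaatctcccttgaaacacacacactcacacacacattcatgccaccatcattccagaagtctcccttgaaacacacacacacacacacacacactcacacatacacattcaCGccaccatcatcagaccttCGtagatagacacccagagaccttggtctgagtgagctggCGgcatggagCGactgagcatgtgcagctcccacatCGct
OPN4 mouse: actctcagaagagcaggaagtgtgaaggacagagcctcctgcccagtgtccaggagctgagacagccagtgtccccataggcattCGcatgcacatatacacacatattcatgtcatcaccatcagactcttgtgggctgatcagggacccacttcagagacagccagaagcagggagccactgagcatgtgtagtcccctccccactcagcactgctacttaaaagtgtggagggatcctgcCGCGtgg

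DMWD, a WD-repeat gene, was HSPC-only at both kinds of start and is shown for that reason, chosen after its values were seen. Its upstream bases held 26 CpGs in human and 20 in mouse (hg38 chr19:45792846-45793095, minus strand, and GRCm38 chr7:19075950-19076199, plus strand), and the RefSeq start used for the mouse lay 27 bp from the GENCODE start.
DMWD human: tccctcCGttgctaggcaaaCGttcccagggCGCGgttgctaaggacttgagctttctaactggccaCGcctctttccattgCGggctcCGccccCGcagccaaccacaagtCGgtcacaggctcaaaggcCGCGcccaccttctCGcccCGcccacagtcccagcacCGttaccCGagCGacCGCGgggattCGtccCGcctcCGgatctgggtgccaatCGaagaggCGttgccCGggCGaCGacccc
DMWD mouse: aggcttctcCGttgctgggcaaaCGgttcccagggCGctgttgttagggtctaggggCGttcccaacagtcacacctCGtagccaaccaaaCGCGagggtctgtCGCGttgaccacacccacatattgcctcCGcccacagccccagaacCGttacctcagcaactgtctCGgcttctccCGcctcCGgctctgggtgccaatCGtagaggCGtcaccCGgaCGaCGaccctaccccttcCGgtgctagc

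CBX8, a canonical PRC1 subunit that binds H3K27me3, had the widest HSPC-only peak by the naming rule, but its call depended on the annotation. The human gene record starts 4606 bp upstream of the principal transcript, in sequence with 2 CpGs, against 22 CpGs before the mouse start (hg38 chr17:79801684-79801933, minus strand, and GRCm38 chr11:119040914-119041163, minus strand). At the principal start CBX8 had a peak in all 4 libraries and was shared.
CBX8 human: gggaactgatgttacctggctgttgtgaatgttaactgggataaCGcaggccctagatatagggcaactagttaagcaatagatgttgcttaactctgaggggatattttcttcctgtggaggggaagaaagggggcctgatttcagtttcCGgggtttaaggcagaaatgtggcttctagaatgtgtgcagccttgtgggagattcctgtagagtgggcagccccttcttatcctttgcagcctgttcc
CBX8 mouse: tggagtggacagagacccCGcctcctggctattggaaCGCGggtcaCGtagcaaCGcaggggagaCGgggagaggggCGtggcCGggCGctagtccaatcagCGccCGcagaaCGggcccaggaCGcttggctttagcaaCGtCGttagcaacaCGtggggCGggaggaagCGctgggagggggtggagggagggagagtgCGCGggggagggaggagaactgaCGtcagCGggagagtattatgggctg

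FIBCD1, which encodes an acetyl-group-binding membrane receptor, is the shared promoter shown, with 29 CpGs in human and 34 in mouse (hg38 chr9:130939287-130939536, minus strand, and GRCm38 chr2:31846006-31846255, minus strand). It lies in the ABL1 region described with the peak widths, and unlike the median of its class it had wider peaks in K562 (58408 and 74605 bp) than in HSPCs (12629 and 5092 bp).
FIBCD1 human: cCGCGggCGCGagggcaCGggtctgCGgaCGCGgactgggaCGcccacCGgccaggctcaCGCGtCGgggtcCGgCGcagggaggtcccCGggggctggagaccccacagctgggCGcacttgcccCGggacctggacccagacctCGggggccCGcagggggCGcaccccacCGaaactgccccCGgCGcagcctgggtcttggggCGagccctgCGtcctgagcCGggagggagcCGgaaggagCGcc
FIBCD1 mouse: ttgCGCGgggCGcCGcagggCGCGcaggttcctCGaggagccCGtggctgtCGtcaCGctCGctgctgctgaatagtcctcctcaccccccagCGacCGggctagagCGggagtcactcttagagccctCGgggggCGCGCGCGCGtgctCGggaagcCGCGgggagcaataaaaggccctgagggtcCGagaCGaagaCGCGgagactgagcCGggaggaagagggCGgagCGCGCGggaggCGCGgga

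HSPC-only promoters were rich in CpG and K562-only promoters poor, in both species. The CpG ratio used here is the observed number of CpGs over that expected from the C and G of the 2-kb window. Its median was 0.313 in human and 0.209 in mouse at K562-only promoters, 0.289 and 0.266 at unmarked promoters, 0.600 and 0.515 at shared promoters, and 0.708 and 0.660 at HSPC-only promoters, beside 0.642 and 0.561 over all matched genes. OPN4 and DMWD, printed above, are examples that differ in this direction, but DMWD was chosen after its values were seen. CBX8, the HSPC-only gene given by the naming rule, had 2 CpGs in the printed human bases. G+C alone did not give this order: in human it was 54.0% at K562-only, 55.1% at HSPC-only and 60.8% at shared promoters. K562-only promoters can come only from the 13.5% of matched promoters with a peak in neither HSPC library. HSPC peaks were most frequent at CpG-rich promoters, so low CpG in the K562-only class follows in part from how the class was defined. HSPC-only promoters likewise come from the 54.9% with a peak in neither K562 library.

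Ranked into quintiles by the CpG ratio of their own species, HSPC promoters with a peak went from 56.7% and 49.6% in the lowest quintile to 95.6% and 93.1% in the highest. In K562, marked promoters were most frequent in the next-to-lowest quintile, at 48.3% and 49.0%, and least frequent in the highest, at 26.0% and 26.99%. The K562 libraries therefore had their lowest marking where HSPCs had nearly their highest. Both replicates followed the same course in each group. With the lists trimmed to an equal covered share, the HSPC values in the lowest quintile were 36.8% and 39.6%, beside 38.9% and 39.5% in K562, and in the highest quintile 68.4% and 83.7%. In that setting the groups overlapped among CpG-poor promoters and remained apart among CpG-rich ones.

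**Figure D2:**
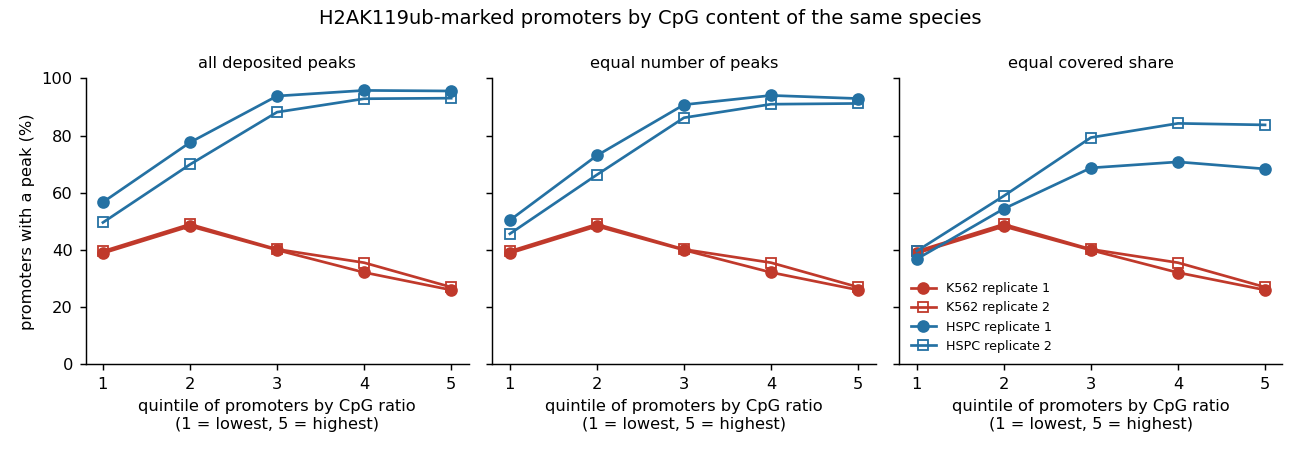
Percent of matched promoters with an H2AK119ub peak (vertical axis) in each quintile of promoters by CpG ratio of the same species (horizontal axis, lowest to highest) for 2 K562 siControl libraries (red) and 2 WT HSPC libraries (blue). Left, all deposited peaks; middle, lists trimmed in file order to an equal number of peaks; right, lists trimmed to an equal covered share, where K562 at 26.0% and 26.99% and HSPCs at 68.4% and 83.7% were farthest apart in the highest quintile and met in the lowest.

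The position of peaks within the promoter also differed. At HSPC-only promoters, HSPC peaks lay over the gene start itself in 86.1% and 81.9% of genes and over the position 1 kb upstream in 33.8% and 30.8%. At shared promoters, HSPC peaks were most frequent 250 bp downstream, at 89.3% and 83.9%. K562 peaks at the same shared promoters had a dip there: 53.9% and 54.9% of genes were under a peak 250 bp upstream, 50.9% and 52.6% at the start, 44.6% and 47.1% were 250 bp downstream, and 55.1% and 57.0% were 1 kb downstream. The dip lay just downstream of the start, in both libraries. At K562-only promoters no such dip was seen, and K562 peaks covered the start in 57.5% and 59.9% of genes.

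**Figure D3:**
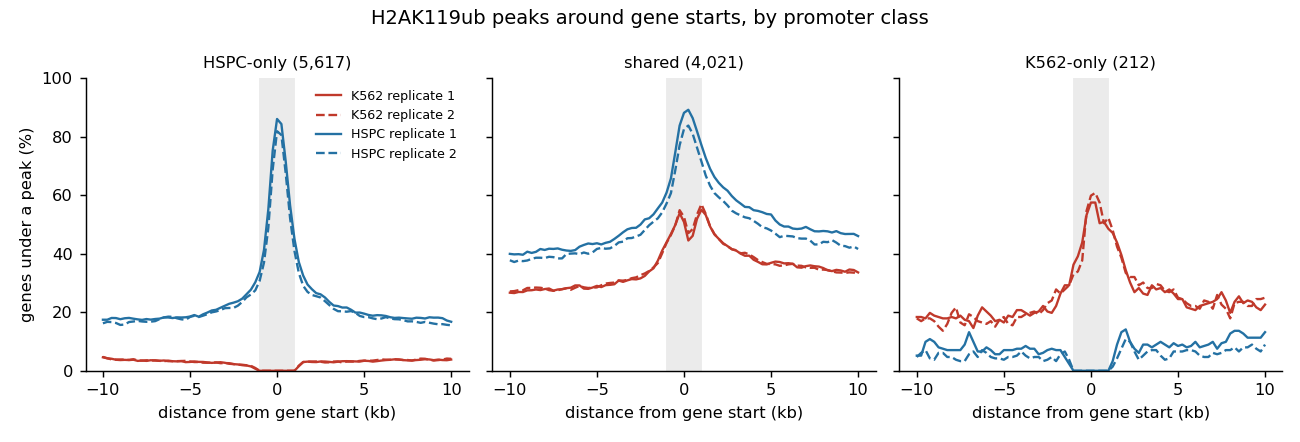
Percent of genes under an H2AK119ub peak (vertical axis) by distance from the gene start in kb (horizontal axis, negative is upstream) at HSPC-only, shared and K562-only promoters, for the 2 K562 (red) and 2 HSPC (blue) libraries. The shaded window of 1 kb to each side defined the classes, so values of 0 inside it follow from that choice; HSPC peaks are most frequent at the start of HSPC-only promoters and 250 bp downstream of it at shared ones, while K562 peaks at shared promoters dip to 44.6% and 47.1% 250 bp downstream.

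HSPC-only promoters seldom had a K562 peak just outside the window. The median distance from their gene start to the nearest K562 peak was 31812 and 31519 bp in the 2 libraries, and 40.7% and 40.1% of them had none within 50 kb. Unmarked promoters lay farther from K562 peaks, at a median of 148628 and 140205 bp. K562-only promoters lay closer to HSPC peaks, at a median of 5135.5 and 8699 bp, and 24.5% and 17.5% had an HSPC peak within 2 kb of the start. At HSPC-only promoters a K562 peak within 2 kb was found for 7.14% and 7.09%. The HSPC lists held more autosomal peaks, 132513 and 112281 against 90225 and 90267 in K562, so the distances are not on an equal footing.

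Shared promoters lay among other genes. The median number of other gene starts within 100 kb was 4 in human and 5 in mouse, against 2 and 3 for HSPC-only and K562-only promoters and 1 and 2 for unmarked ones. The median human gene length was 18313 bp for shared, 20730 bp for K562-only, 42066 bp for HSPC-only and 46459 bp for unmarked genes, beside 32100 bp for all. By human chromosome, shared promoters made up 53.9% of matched genes on chromosome 19 and 4.98% on chromosome 13, and HSPC-only promoters 18.2% and 61.6%. Chromosome 19 is known as gene-rich and chromosome 13 as gene-poor.

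Libraries that the classes did not use gave a further description. In K562 after MBD6 knockdown, 94.3% of K562-only and 93.3% of shared promoters had a peak in both libraries, against 7.74% of HSPC-only ones and 39.2% of all. In Tet2-knockout HSPCs, 97.7% of HSPC-only and 98.1% of shared promoters had one in both libraries, against 21.7% of K562-only ones and 83.4% of all. In the single knockout libraries 33.5% and 35.8% of K562-only promoters had a peak. A peak was absent from both knockout libraries at 52.4% of K562-only promoters, beside 71.8% of unmarked ones and 10.9% of all. In WT mouse embryonic stem cells, H2AK119ub was present in both libraries at 96.4% of shared, 79.2% of HSPC-only, 58.0% of K562-only and 33.1% of unmarked promoters, beside 77.8% of all matched promoters. H3K27me3 in WT HSPCs was called in both libraries at 81.0% of shared, 74.6% of HSPC-only and 44.3% of K562-only promoters, beside 67.5% of all. In embryonic stem cells the H3K27me3 values were 72.3% for shared and 46.1% for HSPC-only promoters, beside 53.7% of all.

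Peaks at shared promoters were wider in HSPCs, which did not hold for the lists as a whole. Over all autosomal peaks the median width was 753 and 747 bp in K562 and 672 and 651 bp in HSPCs. At shared promoters the median width of the widest peak touching the window was 1576 and 1645 bp in K562. It was 3713 and 3094 bp in HSPCs, a log2 ratio of K562 to HSPC of -1.07. At 2318 shared promoters (57.6%) the peak was wider in both HSPC libraries than in both K562 libraries, and at 571 (14.2%) the reverse held. Peaks over 5 kb were found at 16.9% and 17.4% of shared promoters in K562 and at 38.3% and 33.4% in HSPCs. Such broad peaks were present in both K562 libraries at 483 promoters, of which 41.8% were also broad in both HSPC libraries, and in both HSPC libraries at 1054, of which 19.2% were also broad in both K562 libraries. Across the 4021 genes, which share libraries and are not independent, widths in K562 and HSPCs had a Spearman rho of 0.325, while replicates had 0.741 in K562 and 0.716 in HSPCs. Removing peaks under 1 kb left 1841 shared promoters, with a log2 ratio of median widths of -0.68.

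**Figure D4:**
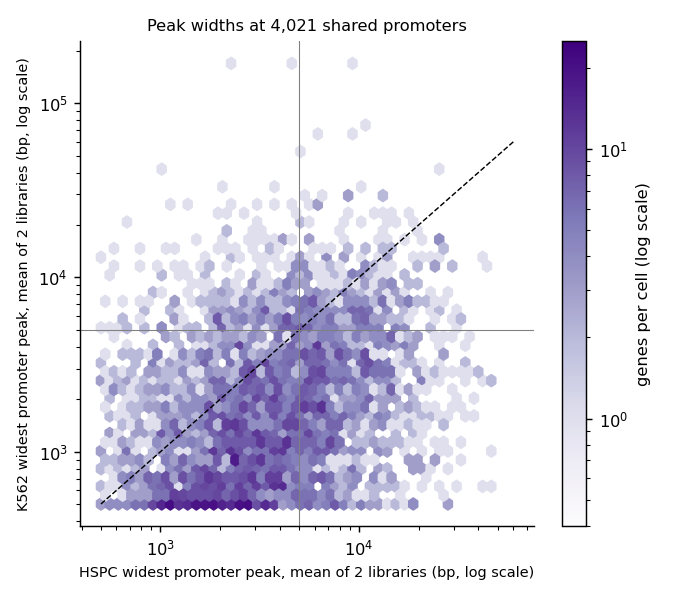
Width of the widest H2AK119ub promoter peak in K562 siControl (vertical axis, bp, log scale) against WT HSPCs (horizontal axis, bp, log scale) at the 4021 shared promoters, each the mean of 2 libraries, with darker cells holding more genes. Most genes lie under the dashed line of equal width, grey lines mark 5 kb, and the points at the top, up to 171058 bp in 1 library, come from the ABL1 region.

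The widest shared K562 peaks lay in regions that K562 is known to carry in extra copies with the BCR-ABL1 fusion. LAMC3, a laminin subunit gene downstream of ABL1 on human chromosome 9, lay under a single peak of 167269 and 171058 bp in K562, beside 10509 and 8252 bp in HSPCs. NUP214, a nuclear pore gene that shares this K562 peak, had the highest ratio of mean K562 to mean HSPC width, with 3553 and 1202 bp in HSPCs and a log2 ratio, averaged over libraries on the log scale, of 6.35. GNAZ, a G protein subunit gene next to BCR on chromosome 22, lay under 78156 and 78400 bp in K562 and 12739 and 8245 bp in HSPCs. RAB36, beside it, lay under 43552 and 38380 bp in K562 and 1161 and 913 bp in HSPCs. In these regions (chr9:130713043-131713043 and chromosome 22 up to position 23318037), 62 of 79 matched promoters were shared (78.5%), beside 26.6% of all. Over the whole of human chromosomes 9 and 22, 31.3% and 40.2% of matched promoters were shared. In each K562 library 2 of the 20 widest peaks lay in the first region, and 11 and 10 in the second. The opposite held around CDKN2A, which K562 is known to lack: no K562 peak lay within 500 kb of it in either library. CDKN2A and CDKN2B, which encode inhibitors of cyclin-dependent kinases, are 2 of the 3 HSPC-only genes among the 5 matched genes there. Without the genes of all 3 regions the class counts were 210 K562-only, 5604 HSPC-only and 3959 shared.

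Outside those regions, wide K562 peaks with narrow HSPC peaks covered KRT16, an epidermal keratin gene (21047 and 21885 bp in K562, 706 and 645 bp in HSPCs), and TMEM92 (15656 and 9457 bp, against 501 and 501 bp). The reverse held at PIP5K1C, which encodes a lipid kinase that makes PtdIns(4,5)P2, with 699 and 501 bp in K562 and 43871 and 48128 bp in HSPCs, a log2 ratio of -6.28 by the same average. ICMT, the methyltransferase that finishes prenylated proteins, had 501 and 711 bp in K562 and 32921 and 52002 bp in HSPCs. SIRT7, a deacetylase linked to ribosomal DNA transcription, had 501 bp in both K562 libraries and 33010 and 22440 bp in HSPCs. CHPF, a chondroitin synthesis gene, had 501 bp in both K562 libraries and 29669 and 24722 bp in HSPCs. In all 4 the K562 peak was at or near 501 bp, the narrowest and most frequent width among autosomal peaks of the lists. NXPH4, a neurexophilin gene, had wide peaks in all 4 libraries, of 34039 and 51396 bp in K562 and 19667 and 29886 bp in HSPCs.

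Genes used by every dividing cell were mostly HSPC-only. In this class were 51 of 75 cytosolic ribosomal protein genes, 25 of 38 proteasome subunit genes, 31 of 58 respiratory chain genes, 35 of 52 genes of DNA replication and mitosis and 19 of 27 widely expressed genes, beside 37.1% of all matched genes. RPL18, RPS2 and RPL41 had 0 bases under peaks in both K562 libraries and 100.0% of the window under peaks in both HSPC libraries. The same held for POLR2A, the largest subunit of RNA polymerase II, for EEF2, a translation elongation factor, and for the replication genes POLD1, CDT1 and MCM7. Exceptions that were shared included GAPDH (37.3% and 23.1% of the window in K562, 100.0% in both HSPC libraries), ACTB (51.0% and 45.3%, against 100.0%) and ACTG1, which was fully covered in all 4. The H3K27me3 lists of WT HSPCs touched 54 of the 75 ribosomal protein promoters in both libraries, beside 67.5% of all matched promoters. They also touched 31 of 52 replication and mitosis, 41 of 58 respiratory chain, 19 of 38 proteasome and 17 of 27 widely expressed promoters. No IgG control list was used here, so how specific the HSPC calls at these promoters are was not tested. H2AK119ub lists of WT embryonic stem cells touched 46 of the 75, beside 77.8% of all. With lists trimmed in file order to equal length, 49 of 75 ribosomal protein and 33 of 52 replication and mitosis genes were HSPC-only. So were 19 of 27 widely expressed, 24 of 38 proteasome and 29 of 58 respiratory chain genes, beside 34.9% of all. Trimming by width to the smallest covered share kept HSPC peaks of at least 1154 and 634 bp and K562 peaks down to 501 bp. HSPC-only genes were then 29 of 75 ribosomal protein, 20 of 52 replication and mitosis and 13 of 27 widely expressed genes. The share of all matched genes was 22.6%. Proteasome genes, at 9 of 38 (23.7%), and respiratory chain genes, at 11 of 58 (19.0%), were then near or below that share.

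The genes of the Polycomb machinery itself followed the same pattern. Among PRC1 subunit genes, 18 of 28 were HSPC-only and 5 shared, beside 37.1% and 26.6% of all matched genes. With lists trimmed to the smallest covered share, 11 of 28 PRC1, 7 of 12 PRC2 and 9 of 16 H2A deubiquitinase genes were HSPC-only. The share over all matched genes was then 22.6%. RING1, the E3 ligase subunit, and PCGF2, a partner of RING1B in canonical PRC1, had no K562 peak and were fully covered in both HSPC libraries, while CBX2 was shared with 8.55% and 2.45% of the window in K562 and 73.0% and 100.0% in HSPCs, where in replicate 1 it shared its peak of 39933 bp with CBX8. Of 12 PRC2 subunit genes, 8 were HSPC-only, among them EED and PHF1, and 3 shared, among them PHF19 (34.6% and 32.3% in K562, 100.0% in both HSPC libraries). Of 16 H2A deubiquitinase genes, 12 were HSPC-only. BAP1, the catalytic subunit, had no K562 peak and 100.0% and 71.4% of its window covered in HSPCs. MBD6, the target of the siRNA used elsewhere in the series, was HSPC-only at the gene-record start and shared at the principal start. TET2, the gene deleted in the knockout HSPCs, had a peak in HSPC replicate 2 alone, over 32.6% of the window, and was HSPC-only at the principal start. TET1 was K562-only, with 21.6% and 10.1% of the window covered.

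Developmental regulators had larger shares of shared promoters. Of 39 HOX genes, 22 were shared and 8 HSPC-only, and of 100 other developmental homeobox genes 48 and 34, beside 26.6% and 37.1% of all matched genes. K562 coverage was partial at many of these shared windows. HOXD9 had 6.35% and 35.9% of the window covered in K562 and HOXA7 53.5% and 31.7%, while in HSPCs HOXD9 was fully covered and HOXA7 had 99.8% and 100.0%. HOXB5, TLX2 and OTX1 had no K562 peak and full cover in HSPCs. HOXA10, HOXB7 and HOXD10 were HSPC-only at the gene-record start and shared at the principal start. Forkhead genes were divided, with 17 of 41 shared and 18 HSPC-only. FOXF2 was shared by a margin, with 0.450% and 0.600% of the window in K562, and FOXO3, a regulator of stem cell quiescence, was HSPC-only. Signalling genes included 19 of 38 Wnt genes and 18 of 47 FGF, BMP and GDF genes in the shared class.

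Blood genes fell into all classes. Of 24 stem and progenitor transcription factor genes, 11 were HSPC-only (45.8%) and 6 shared, beside 37.1% and 26.6% of all matched genes, to which the next lists compare in the same way. The median CpG ratios of these 24 genes were 0.724 in human and 0.663 in mouse. In the CpG quintiles that hold these medians, 47.1% (human) and 50.5% (mouse) of matched promoters were HSPC-only. RUNX1 and GFI1, which regulate definitive blood formation, had no K562 peak and full cover in HSPCs. GATA2 had 39.4% and 42.4% of the window covered in K562, under peaks of 859 and 849 bp, and 100.0% in both HSPC libraries, under 20076 and 21724 bp. TAL1 was covered in all 4 libraries, at 64.8% and 62.8% in K562 and 74.2% and 100.0% in HSPCs. CEBPA, the driver of granulocyte fate that is often mutated in acute myeloid leukaemia, had no K562 peak and full cover in HSPCs. Of 35 genes recurrently mutated in myeloid leukaemia, 18 were HSPC-only (51.4%) and 6 shared (17.1%). Their median CpG ratios were 0.755 in human and 0.779 in mouse, in quintiles where 47.1% and 61.6% of matched promoters were HSPC-only. The HSPC-only shares of these 2 lists are thus near those of promoters of similar CpG ratio. Of 34 erythroid and megakaryocytic genes, 17 were shared (50.0%) and 9 HSPC-only (26.5%), and KLF1, the erythroid master regulator, was almost fully covered in all 4 libraries (100.0% and 94.1% in K562, 100.0% in both HSPC libraries). Of 37 lymphoid genes, 18 were shared (48.6%), 5 HSPC-only (13.5%) and 1, CD8A, K562-only. CD8A had 100.0% and 87.2% of the window covered in K562, and the nearest HSPC peaks lay 33922 and 26905 bp away. ZAP70, a T cell receptor kinase gene, had 69.0% and 100.0% in K562 and 32.4% and 1.65% in HSPCs.

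Lineage markers gave a check of what the lists hold, with the limits that a repressive mark does not measure expression and that 83.9% and 78.7% of all matched promoters had a peak in the HSPC libraries and 37.1% and 38.3% in the K562 libraries. All 6 progenitor markers had a peak in both HSPC libraries, including KIT, the receptor on which the cells were sorted (77.8% and 79.7% of the window), and 3 of 6 had one in each K562 library. Erythroid markers were marked in 5 of 5 cases in both HSPC libraries and in 3 of 5 in both K562 libraries, where TFRC, the transferrin receptor gene, was among those with none. B cell markers had a peak in 5 of 5 cases in each K562 library and in 5 and 4 in the HSPC libraries. T cell markers had a peak in 2 and 1 of 5 cases in K562 and 4 and 2 in HSPCs, and mature myeloid markers in 3 and 4 of 5 and in 4 and 3. H2AK119ub was thus called at KIT in cells sorted for its protein, and RNA was not analysed here.

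Among the gene lists, keratins had the largest share of K562-only promoters. Of 49 members, 9 were shared, 18 unmarked and 0 HSPC-only, beside 26.6%, 11.0% and 37.1% of all matched genes. In the K562-only class were 7 of the 49, beside 1.4% of all. KRT17, KRT14, KRT76 and KRT9, keratins of the epidermis and its appendages, are examples. KRT17 was fully covered in both K562 libraries under peaks of 21047 and 21885 bp, which also cover KRT16, so that neighbouring keratin calls are not independent. GPR17, an oligodendrocyte receptor gene, had the widest K562-only peaks, at 27211 and 35431 bp, and its nearest HSPC peaks lay 3523 and 4366 bp from the mouse start. OPN4 lay under K562 peaks of 17220 and 17700 bp, COL20A1, a collagen gene, under 10591 and 10990 bp, and OBP2B, an odorant-binding protein gene, under 12566 and 7081 bp. SLC6A19, a kidney and gut amino acid transporter gene, lay under 13168 and 13186 bp but was shared at the principal start. In H3K27me3 lists of WT HSPCs, KRT17 and OBP2B were fully covered in both libraries although H2AK119ub was not called there.

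Among HSPC-only genes the widest peaks after CBX8 lay over DMWD (36318 and 30040 bp) and PDXP, a pyridoxal phosphatase gene (33611 and 29633 bp), with none in K562. The nearest K562 peaks were 1719 and 1980 bp from the DMWD start and 1971 and 10914 bp from the PDXP start. R3HDM4 and MROH2A were wide in 1 HSPC library each, at 9963 and 41933 bp and at 45024 and 4692 bp. NDUFS7, a subunit gene of respiratory complex I, lay under 19846 and 26409 bp.

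Channels, receptors and adhesion genes of neurons and epithelia were more often unmarked than other genes were. Unmarked promoters made up 20 of 44 classical cadherin and claudin genes, 22 of 62 ligand-gated neurotransmitter receptor genes, 14 of 61 voltage-gated channel genes and 13 of 41 collagen genes, beside 11.0% of all matched genes. CDH11, an osteoblast cadherin gene, is an example with no H2AK119ub peak in the 4 libraries, although H3K27me3 peaks covered 100.0% of the CDH11 window in both WT HSPC libraries. Voltage-gated channel genes were at the same time shared in 27 of 61 cases, beside 26.6% of all matched genes. SCN4A, the skeletal muscle sodium channel, was fully covered in K562 and had 1.15% and 33.7% of its window covered in HSPCs, and KCNG2 had 7.90% and 21.4% in K562 and 84.5% and 85.9% in HSPCs. C2H2 zinc finger genes with a symbol used in both species were HSPC-only in 45 of 74 cases and shared in 12. Over all matched genes these shares were 37.1% and 26.6%. Most human ZNF genes have mouse names of another form and were not matched.

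**Figure D5:**
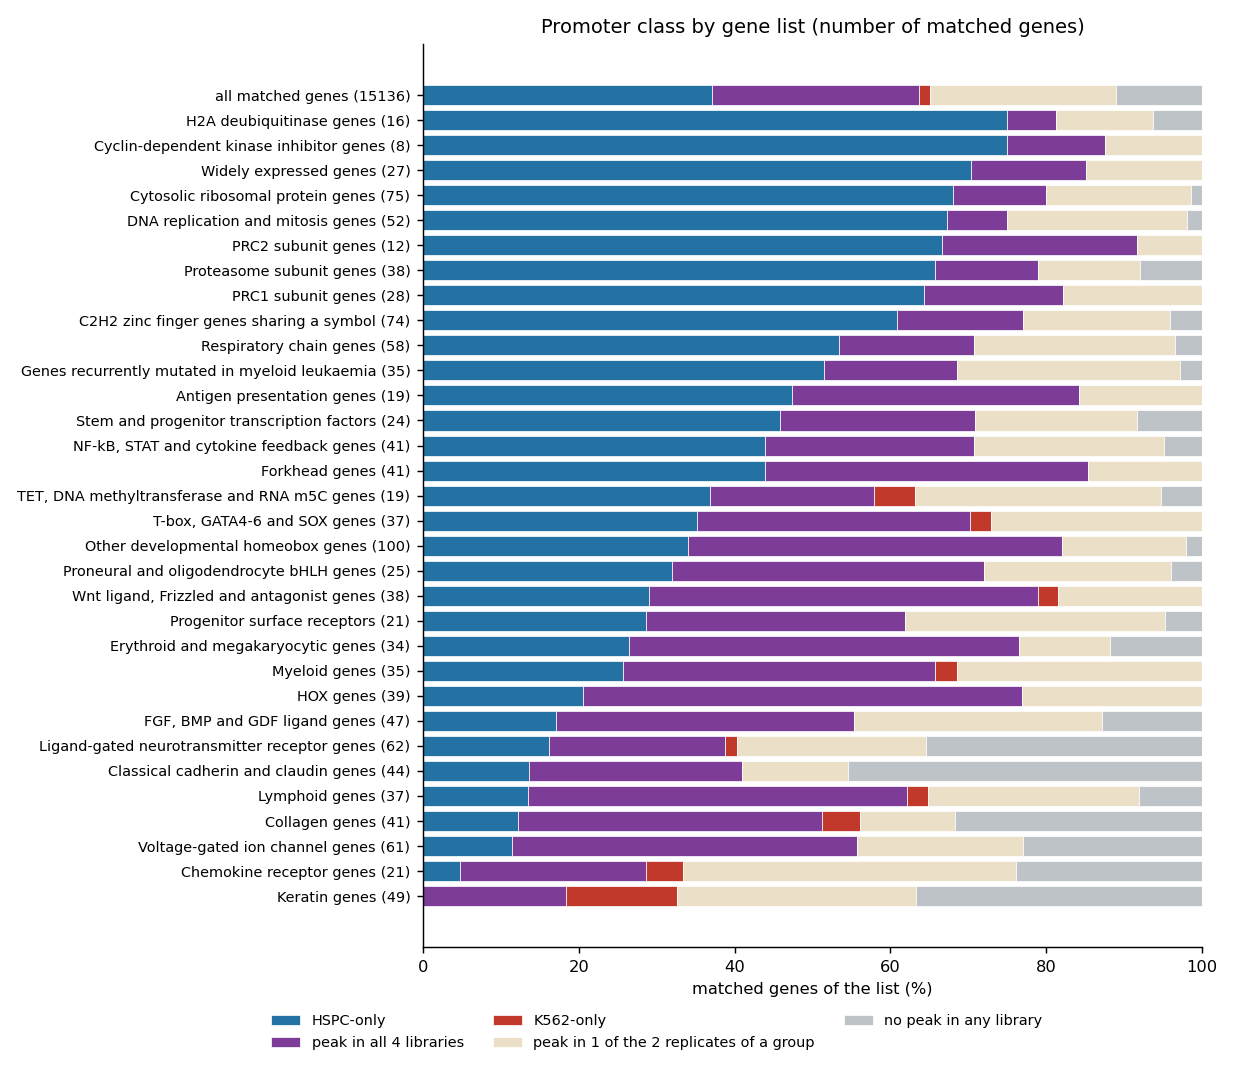
Share of the matched genes of each list (horizontal axis, percent, number of genes in brackets) whose promoter was HSPC-only (blue), shared by all 4 libraries (purple), K562-only (red), marked in 1 of the 2 replicates of a group (beige) or marked in no library (grey), with all 15136 matched genes in the top row. Lists of ribosomal protein, replication and Polycomb genes have most of their genes in blue, lists of HOX and channel genes have more purple than blue, and keratins have no blue and the longest red segment.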

How the data were processed

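The deposited CUT&Tag files used here are 1 peak list per library with chromosome, start and end and no other values, so no count, signal or score made by the authors was analysed here. Following the labels and the methods of the study, reads were trimmed (Trimmomatic 0.39), aligned with Bowtie2 2.4.1 to hg38 or mm10 with a Drosophila spike-in, freed of duplicates and used for peak calling; the methods name MACS2 in broad mode and the labels also list HOMER 4.9, and which made these lists is not given in the sources used here. Between 35.3% and 41.4% of autosomal peaks in the 4 lists were exactly 501 bp wide, and none was narrower. Position lists carry no spike-in scaling.

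Gene starts came from GENCODE v44 (human) and vM21 (mouse), 1 gene per upper-case symbol, autosomal in both. A promoter was 2001 bp and needed 1 bp under a peak. Windows were computed with pandas 2.3.3 and numpy 2.4.6 under Python 3.11.15, matched bedtools 2.31.1 in all 15136 windows of each list, and were tested on simulated data. Groups were compared by two-sided exact permutation tests over 6 assignments. Members and gene lists were chosen with earlier results of these data known. Genes were named by rule: the 6 widest K562-only and HSPC-only, 4 shared at each extreme of width and of the width ratio, up to 4 per class of each of 32 gene lists, and the targeted genes. Same-numbered replicates were not paired (r = -0.00109 between their deviations over promoters). Alternatives varied the window, overlap, minimum width, list length, gaps, gene start, neighbours, X-linked genes, replicates and the replicate rule; leaving out the amplified and deleted K562 regions, and applying the trimmed lists to CpG quintiles, were added after seeing the data.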

Additional observations from a re-analysis of the deposited data

How the results depend on the processing

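The 4 tested values kept their direction, K562 below HSPC, in all 64 recomputations, but the exact permutation test cannot pass the threshold with 2 libraries a group. Of 48 recomputed class counts, 42 stayed within 1.5 times the value reported. Shared promoters numbered 1841 with peaks of at least 1 kb and 6451 when 1 library of each group was enough, where K562-only promoters numbered 380. With lists trimmed by width to the smallest covered share, K562-only promoters numbered 502 and HSPC-only promoters 3417. Leaving out 1 library gave 294 to 466 K562-only promoters, the highest without HSPC replicate 1. With the replicate number as a block, which pairs libraries by number alone, the smallest and the observed exact p were 0.5 for all 4 values, with the difference in marked promoters at -43.7 percentage points. Of 363 recomputed values of 26 named genes, 342 moved by no more than the replicate SD. Leaving out 1 library could not move a value beyond that SD. Settings that only added or removed other genes left a named gene's own value unchanged. The count of 342 therefore says little about stability. A change of sign was seen in 1 value: the log2 width ratio at NXPH4 was -0.58 with 500 bp on each side of the start. The causes were not tested. Depth is unknown, so absence of a peak is not absence of the mark.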

Other observations

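Gene families looked up after the list of K562-only promoters was seen, and so a description without support of their own, included tissue kallikreins, secreted serine proteases of epithelia, with 5 of 13 matched genes K562-only (KLK1, KLK4, KLK5, KLK9 and KLK12), 1 shared and 0 HSPC-only. BPI fold genes, whose products are secreted in the airways and mouth, had 5 of 8 K562-only (BPIFA2, BPIFA3, BPIFB2, BPIFB3 and BPIFB6) and 2 shared. Both families are gene clusters, so their members can lie under common peaks. Serpins had 3 of 25 K562-only and 14 unmarked, and clustered protocadherins had 37 of 49 unmarked and 0 K562-only. Over all matched genes 1.4% were K562-only, 37.1% HSPC-only, 26.6% shared and 11.0% unmarked.

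ABL1 itself changed class with the start used: at the gene-record start it was HSPC-only, with 69.9% and 31.6% of the window covered in HSPCs and the nearest K562 peaks 24595 and 20440 bp away, and at the principal start it was K562-only. BCR was shared, under K562 peaks of 43552 and 5627 bp.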
